A study of Mus musculus with 15 samples.

Results

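The genes described here set the shape of mitochondria: they code for proteins that fuse mitochondria, divide them or hold the folds of the inner membrane in place. Opa1, Mfn1, Mfn2, Dnm1l, Fis1, Mtfr1, Immt, Phb and Phb2 were taken by name, and for each every array probe set paired with that gene symbol and no other was used. Of the 9 genes, 8 had such probe sets, 20 in all, among 12393 genes and 20380 probe sets with 1 gene symbol. Phb shared both of its probe sets with 1700071K01Rik and is not reported. The group was chosen with earlier results on the wild-type arrays known, in which Opa1 was among the genes with the largest falls in septic hearts. For these genes the differences between septic and sham wild-type hearts are therefore given as a description, and counts past a threshold there support nothing. Tests of these genes are given for the comparison within septic wild-type hearts and for the knockout hearts.

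Whole hearts were taken from mice 48 hours after abdominal surgery, and total RNA was hybridised to 1-colour arrays, 15 arrays in 5 groups of 3. Wild-type mice were C57/BL6 and had a sham operation or CLP, caecal ligation and perforation: tying off and puncturing the caecum lets gut bacteria into the abdomen and causes sepsis. The wild-type CLP hearts carry the labels Min Dep and Max Dep, 3 arrays each, which the labels do not spell out; the series title speaks of myocardial depression. Congenic B6.129P2-Nos2tm1Lau/J mice, which carry a germline knockout (KO) of Nos2, the gene of inducible nitric oxide synthase, had sham surgery or CLP. All groups shared the inhaled anaesthetic, the opening of the abdomen, buprenorphine, saline and the invasive pressure measurement under ketamine and xylazine, so the sham hearts are operated and not untouched controls. Age and sex are not in the labels, and nothing says whether an array is 1 animal, so p-values measure the spread between these samples.

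The deposited values limit what can be said. In the wild-type table each probe set had been standardised across the 9 arrays (mean 0, SD 1.0), apart from a step per array, so a value is a position within the wild-type arrays and never a level or a fold. At that scaling 3 arrays cannot differ from 6 by more than 2.0 units. The knockout table, from another array model, holds centred log differences of unknown base. The 2 genotypes were therefore never compared in level, and the heart label could not be checked against marker levels. In the knockout table the CLP replicate 1 column lay between the other 2 CLP columns for 76.0% of probe sets, against 32.8% to 34.4% for the sham columns, so it was left out of the fits. Knockout sham replicate 1 shared another trait with that column and was kept. Both held 0 values of exactly 0, where the other knockout columns held 2992 to 3122. Wild-type sham replicate 1 stood apart in Xist (2.64, against -0.53 to -0.17 in the other wild-type arrays) and knockout sham replicate 2 in the opposite way (-6.36). The knockout CLP column left out lay at -3.23. Eif2s3y, a gene of the Y chromosome, mirrored this in the sham arrays. It was -2.48 in wild-type sham replicate 1 and 5.76 in knockout sham replicate 2, against -0.68 to 1.09 and -0.27 to 0.10 in the other arrays. Whether the sham groups mix sexes was not tested.

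Mitochondria in heart muscle fuse and divide continually. Mitofusins 1 and 2 (Mfn1, Mfn2) are GTPases that join the outer membranes, and Opa1 is the dynamin-like GTPase that fuses the inner membranes and helps keep cristae, the inner folds, tight. Immt (mitofilin, Mic60) is the core of the complex at cristae junctions, and Phb2 is one of the prohibitins, ring-forming scaffolds of the inner membrane on which Opa1 processing depends. Division is carried out by Dnm1l (Drp1), a cytosolic GTPase that wraps around the outer membrane, while Fis1 is an outer-membrane adaptor and Mtfr1 a regulator that promotes fission.

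Sequence near the starts of Opa1, Immt and Phb2 is shown because these were the members whose septic and sham wild-type arrays did not overlap, the first pair lower and Phb2 higher in sepsis. The windows searched are the 250 bases before each start in the RefSeq promoter table (GRCm38.p6), on the gene's strand, and 8 of the 11 member windows reach into the gene's own RefSeq span, which can begin at an earlier start. The Opa1 window (chr16:29579084-29579333) has 53 bases inside that span, the Immt window (chr6:71831070-71831319) 229 and the Phb2 window (chr6:124712039-124712288) 0. For Opa1 and Immt the 30 bases around the match are therefore printed (chr16:29579265-29579294 and chr6:71831190-71831219), and for Phb2 the whole window, all on the plus strand. Capitals mark the nuclear respiratory factor 1 core GCATGCGC or the ETS core CCGGAAG, the core of sites for the GABP (NRF2) factors, on either strand; both factors are known for driving nuclear genes of mitochondrial proteins.
Opa1: gtggctccccGCGCATGCGCatgtcatccg
Immt: ccaagcgcgacCCGGAAGgagaacctgccc
Phb2: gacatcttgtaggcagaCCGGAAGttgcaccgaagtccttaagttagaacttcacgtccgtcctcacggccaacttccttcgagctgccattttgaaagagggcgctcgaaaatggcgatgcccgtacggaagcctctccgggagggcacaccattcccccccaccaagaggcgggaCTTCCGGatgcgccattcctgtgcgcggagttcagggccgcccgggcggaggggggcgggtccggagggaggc
The Opa1 window held the nuclear respiratory factor 1 core on both strands, as 2 overlapping matches that span the first base of the RefSeq gene at 29579281, and no ETS core. Immt held 1 ETS core, inside the RefSeq gene, which begins at 71831091, and Phb2 held 2, 1 on each strand. The same ETS core occurred once in the Mfn1 window and in 1 of the Fis1 windows, and neither core occurred in the windows of Mfn2 or Dnm1l. Of 32851 RefSeq promoter windows of this length, 2.26% held the nuclear respiratory factor 1 core and 6.91% the ETS core. The estrogen-related receptor element TCAAGGTCA was in 0.387% of all windows and in none of the members' windows. These are letter matches, not measured binding.

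Opa1 and Immt, of the inner membrane and its cristae, stood lower in all septic wild-type hearts than in all sham hearts, while Phb2 stood higher. Opa1 lay at 1.13, 1.75 and 1.34 in the sham arrays, at -0.50, -0.54 and -1.0 in Min Dep and at -0.64, -0.99 and -0.72 in Max Dep. The 6 septic arrays lay close together, all below the sham arrays. The CLP minus sham difference of Opa1 was -2.14 ± 0.19 standardised units (SE, 6 against 3 arrays), and both of its probe sets gave -2.14. With the array step undone it was -1.94, against the limit of 2.0 that the scaling allows.

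Immt followed the same split with more spread among the septic arrays. It lay at 0.95, 1.47 and 1.51 in sham, at -1.14, -0.18 and -0.90 in Min Dep and at -0.36, -1.20 and -0.15 in Max Dep, with no overlap between septic and sham hearts. The difference was -1.97 ± 0.33 units, and its 3 probe sets gave -2.11, -2.11 and -1.69. Phb2 ran the other way, at -1.30, -0.68 and -0.84 in sham, at 0.11, -0.44 and 0.39 in Min Dep and at 1.71, 0.31 and 0.82 in Max Dep. Its difference was 1.42 ± 0.36 units, but its probe sets disagreed in size. The sets 1438938_x_at and 1455713_x_at, whose suffix marks probes that may also match other transcripts, gave 1.84 and 1.89, and the plain set 1416202_at gave 0.53 ± 0.64 with overlapping groups.

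**Figure D1:**
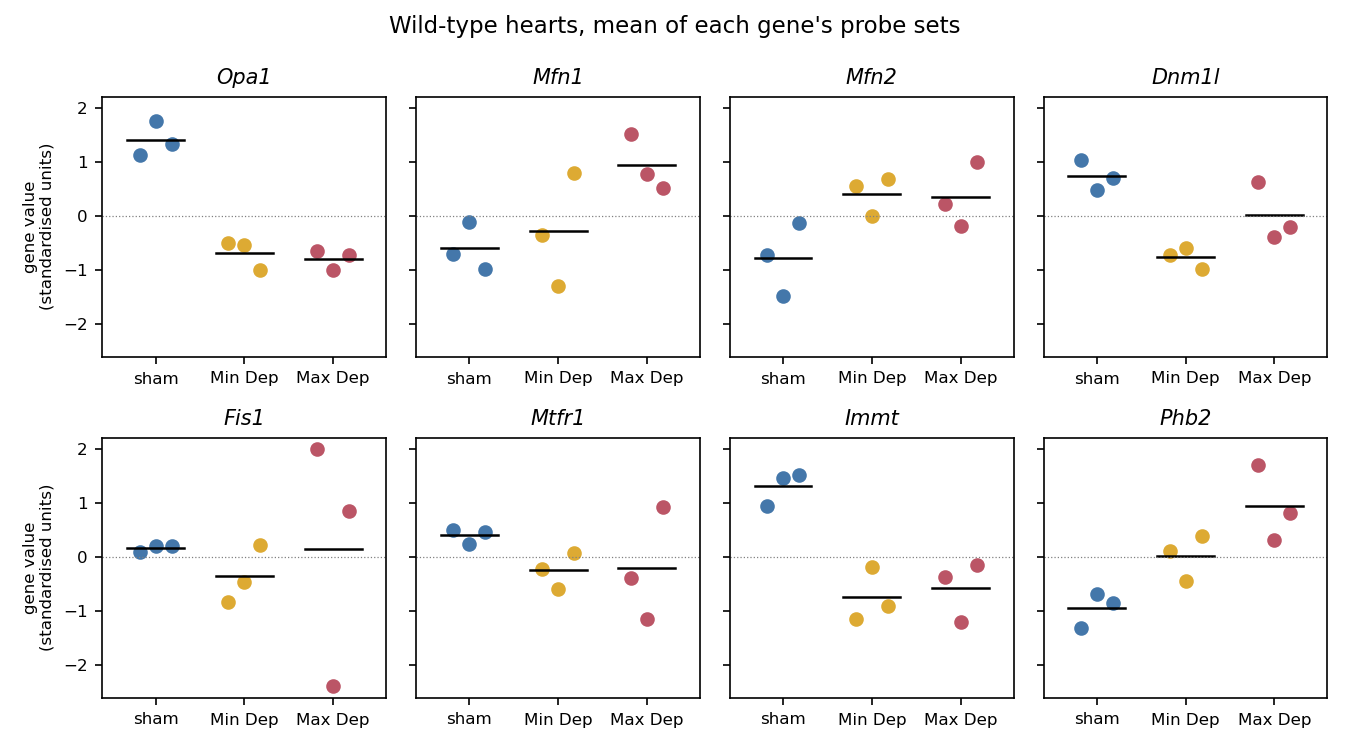
Value of each gene (mean of its probe sets, standardised units, vertical axis) on the 3 sham, 3 Min Dep and 3 Max Dep wild-type arrays; points are arrays and bars are group means. Opa1 and Immt lie above 0.9 in every sham array and below 0 in every septic array, Phb2 shows the opposite order, and Fis1 in Max Dep spans -2.38 to 1.99.

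The mitofusins lay higher on average in septic wild-type hearts, with overlap. Mfn1 lay at -0.70, -0.10 and -0.97 in sham, at -0.34, -1.29 and 0.79 in Min Dep and at 1.52, 0.77 and 0.52 in Max Dep. The Max Dep arrays were all above the sham arrays and the Min Dep arrays spread across them, and the CLP minus sham difference was 0.92 ± 0.51 units. Its probe sets ranged from 0.07 ± 0.86 (1426773_at) to 1.76 ± 0.47 (1449697_s_at, whose suffix marks probes shared by several transcripts). Mfn2 lay at -0.71, -1.48 and -0.13 in sham, at 0.55, 0.01 and 0.68 in Min Dep and at 0.23, -0.19 and 1.00 in Max Dep. Max Dep replicate 2 was the one septic array that lay below the highest sham array, and the difference was 1.15 ± 0.40 units.

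Among the fission genes, Dnm1l was lower in sepsis by part of its probe sets only. At the gene level it lay at 1.03, 0.49 and 0.70 in sham, at -0.72, -0.58 and -0.98 in Min Dep and at 0.63, -0.39 and -0.20 in Max Dep. Every Min Dep array was below every sham array and 1 Max Dep array was within the sham range, and the CLP minus sham difference was -1.11 ± 0.26 units. The sets 1428087_at and 1452638_s_at gave -1.95 ± 0.40 and -2.05 ± 0.39, with no overlap. Values this near the limit of the scaling mark a split of the arrays and give no size of fall to set beside Opa1. The sets 1428008_at and 1428086_at gave -0.46 ± 0.85 and 0.01 ± 0.36. Fis1, measured by 1 probe set, lay between 0.09 and 0.21 in sham and between -2.38 and 1.99 in Max Dep, and its difference was -0.27 ± 0.95 units. Mtfr1 gave -0.63 ± 0.45 units, with its 2 probe sets at -0.67 and -0.59 and septic arrays on both sides of the sham arrays.

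By count, 1 of the 8 genes (Opa1) passed the adjusted threshold of 0.05 in CLP against sham, where 0.718% of all genes did, and 3 of 8 had groups that did not overlap, where 12.0% of all genes did. By probe set 4 of 20 passed, 2 of Opa1 and 2 of Immt, against 2.52% of all probe sets. Nothing is read from these counts, since this contrast was known when the genes were chosen. Opa1 no longer passed when any one array was left out, except Min Dep replicate 2, with differences of -2.28 to -1.97, nor with moderated variances (0 of 12393 genes passed then) or the covariate below (1 of 12393). The median difference was -0.45 over the 8 genes and 0.02 over all genes.

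Taken apart, Max Dep and Min Dep hearts gave like values for Opa1 against the same sham arrays, -2.19 ± 0.22 and -2.08 ± 0.22 units. The scaling leaves these Opa1 values little room to differ, and limits the Immt values too. For Immt the values were -1.88 ± 0.38 and -2.05 ± 0.38, for Dnm1l -0.73 ± 0.30 and -1.50 ± 0.30, for Mfn2 1.12 ± 0.46 and 1.19 ± 0.46. Mfn1 gave 1.53 ± 0.59 and 0.31 ± 0.59, and Phb2 1.88 ± 0.42 and 0.96 ± 0.42. The Min Dep value of Phb2 rests on the sets 1438938_x_at (1.61 ± 0.40) and 1455713_x_at (1.69 ± 0.44), and the plain set 1416202_at turned the direction, at -0.42 ± 0.74. Dnm1l sets disagreed in Max Dep, with 1428086_at at 1.24 ± 0.42, 1428008_at at -0.27 ± 0.98, 1428087_at at -1.75 ± 0.46 and 1452638_s_at at -2.12 ± 0.45. In Min Dep every Dnm1l set was lower than sham. The like Mfn2 values hide unlike probe sets. The set 1448131_at gave 2.19 ± 0.52 in Max Dep and 0.82 ± 0.52 in Min Dep, and 1451900_at gave 0.04 ± 0.48 and 1.55 ± 0.48. Opa1 was the only one of the 8 genes past the threshold in Max Dep against sham (0.452% of all genes), and none was in Min Dep against sham (0.0565%). The Opa1 call in Max Dep ended when any one array was left out (differences of -2.33 to -2.02), with moderated variances, with the 5′ minus 3′ covariate and with only the arrays compared. By probe set both Opa1 sets passed in each, against 1.08% and 0.550% of all probe sets. All these comparisons share the sham arrays.

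**Figure D2:**
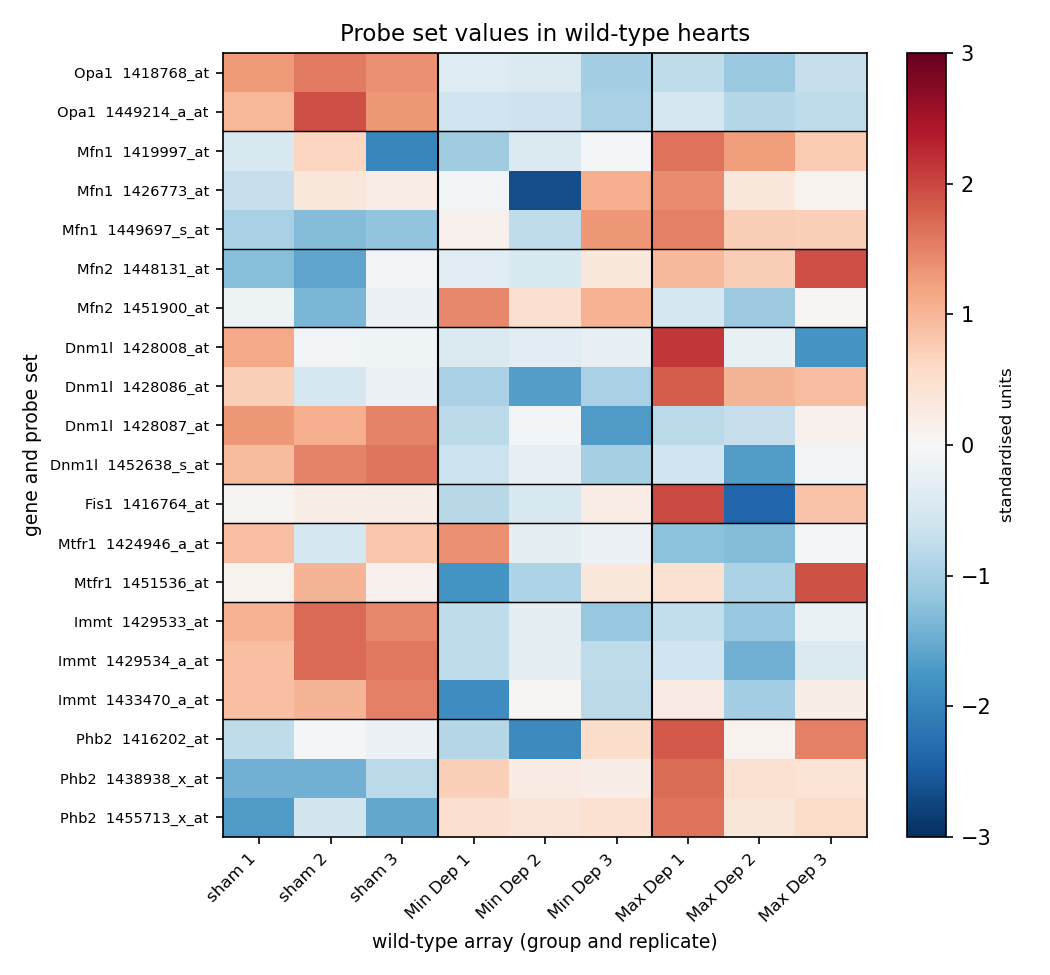
Standardised value (colour, red high and blue low) of each of the 20 probe sets (rows, by gene) on the 9 wild-type arrays (columns). Both Opa1 sets, all 3 Immt sets and 2 of the 4 Dnm1l sets are red in every sham array, while the other Dnm1l sets, Mfn1, Mfn2 and Mtfr1 differ from probe set to probe set.

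Other measures moved with the same split. The mean of 10 macrophage and monocyte markers was -1.45 to -0.61 in wild-type sham and 0.06 to 1.12 in CLP hearts, and all 10 were higher in CLP. The mean of 8 fibroblast markers was 0.93 to 1.21 in sham and -1.73 to 0.19 in CLP, and all 8 were lower. Neutrophil markers were -1.20 to -0.18 in sham and 0.07 to 0.54 in CLP, with 6 of 8 higher and 2 lower. Smooth muscle and pericyte markers were 0.40 to 0.99 and -0.88 to 0.17, with 6 of 7 lower. Adipocyte markers were 0.04 to 1.34 and -1.40 to -0.01, with all 5 lower. Endothelial markers overlapped, at -0.94 to 0.26 and -0.23 to 1.10, with 5 of 8 higher. The mean of 12 cardiomyocyte markers overlapped, at 0.23 to 0.49 in sham and -0.88 to 0.32 in CLP, with 10 of 12 lower and none past the threshold. Standardised values show no marker as present or at 0. In these whole-heart samples fewer cells of a type and less RNA per cell cannot be told apart. The mean 5′ minus 3′ difference of the Gapdh and Actb control probe sets was 0.39 to 1.76 in sham and -1.85 to 0.53 in CLP. It is taken between standardised values, so it is no ratio of signals and does not measure RNA integrity. The 2 controls did not always go together, with Gapdh at 1.35 and Actb at -0.25 in sham replicate 1. With that difference as a covariate Opa1 was -2.23, Immt -2.31 and no member passed. The covariate moved Fis1 from -0.27 to -1.7 and Mtfr1 from -0.63 to -1.43. The part of the cell type markers in the differences was not tested.

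Within septic wild-type hearts, no member differed between Max Dep and Min Dep after adjustment (limma, 0 of 8 genes, against 0% of 12393 genes; 0 of 20 probe sets, against 0% of all probe sets). At an unadjusted p under 0.05 there was 1 of 8, Dnm1l, against 9.81% of all genes, a share near the background. Opa1 differed by -0.11 ± 0.22 units (95% interval -0.64 to 0.42, limma adjusted p = 0.878). The scaling largely sets how small this can be. With the array step undone, the septic and sham split of Opa1 was -1.94 of a possible 2.0. Little room was left between the septic groups, so nothing is concluded from their closeness. Immt differed by 0.17 ± 0.38 units (adjusted p = 0.891), Mfn2 by -0.07 ± 0.46 (0.967) and Mtfr1 by 0.04 ± 0.52 (0.98). The scaling limited Immt too, whose septic and sham split was -1.79 with the array step undone. Nothing is concluded from the closeness of its septic groups either. Fis1, at 0.51 ± 1.10 (0.887), had most of its scaled spread within the groups, so this comparison says little about it.

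Dnm1l was higher in Max Dep by 0.77 ± 0.30 units (95% interval 0.03 to 1.51, limma adjusted p = 0.497), and was the 1 of 8 genes whose groups did not overlap, against 15.3% of all genes. That rested mostly on a single probe set. The set 1428086_at lay at -0.97, -1.65 and -0.97 in Min Dep and at 1.82, 1.01 and 0.92 in Max Dep, with sham between them at 0.72, -0.50 and -0.17. Its difference was 2.45 ± 0.42 units (limma unadjusted p = 0.00114, adjusted p = 0.259), while the other 3 Dnm1l sets gave -0.16 to 0.40. Phb2 gave 0.92 ± 0.42 (adjusted p = 0.53) and Mfn1 1.22 ± 0.59 (adjusted p = 0.541).

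The 2 Mfn2 probe sets pointed in opposite directions between the septic groups, which leaves the gene mean near 0. The set 1448131_at lay at -0.33, -0.45 and 0.32 in Min Dep and at 0.98, 0.73 and 1.94 in Max Dep, a difference of 1.37 ± 0.52 units (limma adjusted p = 0.492). The set 1451900_at lay at 1.44, 0.47 and 1.04 in Min Dep and at -0.52, -1.10 and 0.05 in Max Dep, a difference of -1.51 ± 0.48 (adjusted p = 0.44). Neither passed, although groups did not overlap for either. With Dnm1l 1428086_at and Mfn1 1419997_at, 4 of 20 member probe sets had groups that did not overlap, against 15.2% of all probe sets. For Mtfr1 too the sets pointed apart, at -1.18 ± 0.66 and 1.27 ± 0.87.

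In knockout hearts the split of Opa1 and Immt between septic and sham arrays was not seen at this precision. Opa1 lay at -1.05, 0.72 and 0.09 in sham and at -0.70 and 0.82 in the 2 CLP arrays used, with 0.01 in the column left out. The CLP minus sham difference was 0.14 ± 0.72 log units (2 against 3 arrays, 95% interval -1.59 to 1.87, limma adjusted p = 0.967). Immt lay at -0.65, 0.42 and 0.78 in sham and at -0.44 and 1.56 in CLP, a difference of 0.38 ± 0.75 (adjusted p = 0.906). These intervals are wide and on another scale than the wild-type values, so they do not show that Opa1 was unaltered in knockout hearts, and the genotypes were not tested against each other.

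Phb2 was the member furthest from 0 in knockout hearts, and it was lower in sepsis. It lay at 0.58, 0.40 and 0.78 in sham and at -0.87 and -0.63 in CLP, with -0.50 in the column left out, so no CLP array reached the sham range. The difference was -1.34 ± 0.41 log units (95% interval -2.32 to -0.35, limma unadjusted p = 0.0153, adjusted p = 0.266) and did not pass. It was the 1 of 8 genes at an unadjusted p under 0.05, against 11.9% of all genes, and the 1 of 8 whose groups did not overlap, against 28.9%. By probe set 1455713_x_at gave -1.87 ± 0.47, 1438938_x_at -1.23 ± 0.67 and the plain set 1416202_at -0.90 ± 0.69, the last with overlapping groups. In all 2 of 20 member probe sets did not overlap, against 27.9% of all.

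No member passed in knockout hearts (limma, 0 of 8 genes, against 0% of 12393 genes; 0 of 20 probe sets, against 0%). With the CLP replicate 1 column kept, 295 of the 12393 genes passed and still none of the 8; Phb2 was then at -1.25 (adjusted p = 0.072). Mtfr1 gave 1.05 ± 0.55 log units (adjusted p = 0.537), Fis1 0.63 ± 0.57 (0.763), Dnm1l 0.11 ± 0.57 (0.967), Mfn1 -0.09 ± 0.61 (0.975) and Mfn2 -0.33 ± 0.82 (0.924). CLP replicate 2 lay below CLP replicate 3 for all 8 genes, for example at -0.80 and 0.76 for Dnm1l, and sham replicate 1 was the lowest sham array for all but Phb2. The mean of the cardiomyocyte markers was -1.38 and 0.41 in those CLP arrays and -0.71, 0.50 and 0.56 in sham replicates 1, 2 and 3, lowest in the same 2 arrays. The endothelial marker mean was -2.03 to -0.48 in CLP against 0.59 to 1.62 in sham, and the macrophage mean 1.98 to 2.66 against -0.59 to 0.08. The neutrophil mean was 1.74 to 3.17 in CLP against -0.45 to -0.11 in sham. Fibroblast markers had a mean of -1.53 to -0.39 in CLP against 0.24 to 1.05 in sham. Smooth muscle and pericyte markers were at -1.37 to -0.85 against 0.35 to 1.36, and adipocyte markers at -1.94 to -0.67 against -0.35 to 1.53. The 5′ minus 3′ control difference was also lowest in CLP replicate 2 (-2.06) and sham replicate 1 (-1.97), against -0.78 in CLP replicate 3 and 0.21 and 0.98 in the other sham arrays. With it as a covariate Opa1 was at 0.82, Immt at 1.13, Phb2 at -1.27, Mfn1 at 0.51 and Mfn2 at 0.58, the last 2 with their direction turned, and no member passed. The part of the cell type markers in the values was not tested.

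**Figure D3:**
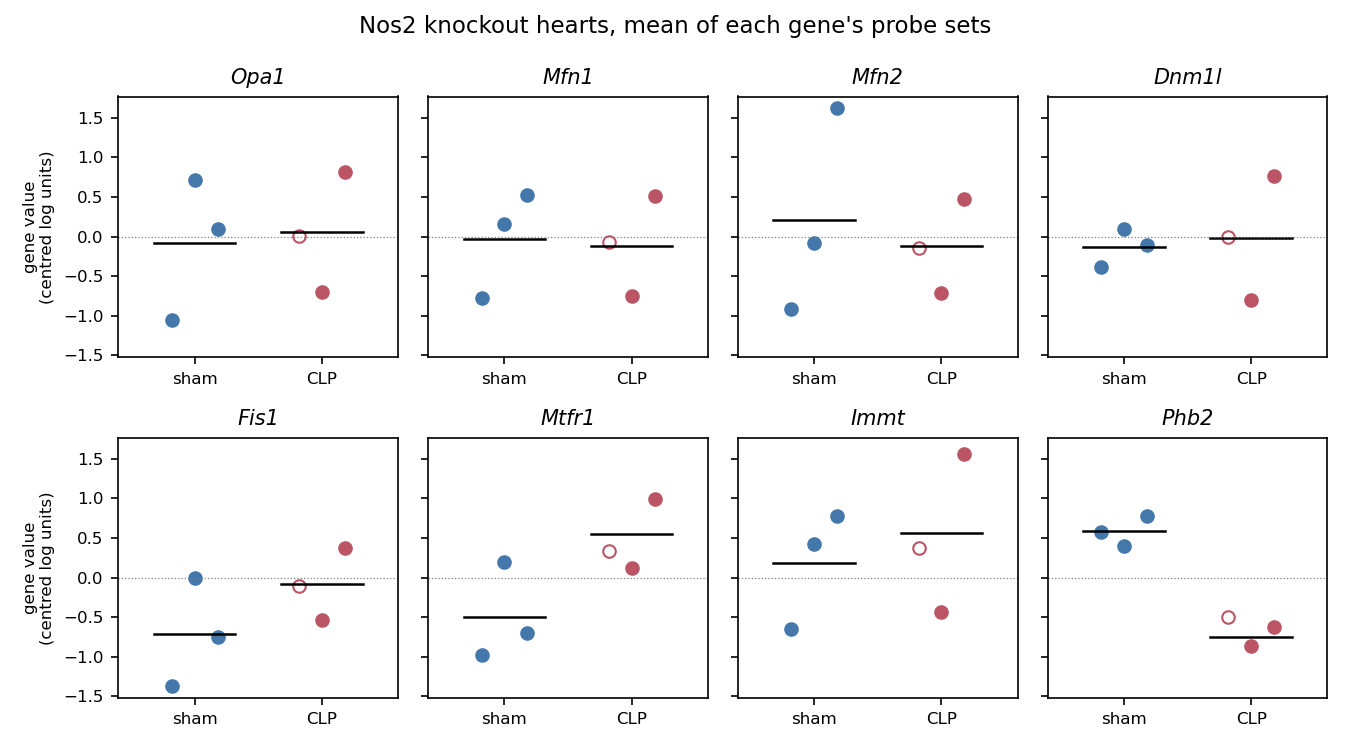
Value of each gene (mean of its probe sets, centred log units of unknown base, vertical axis) on the knockout arrays; filled points are arrays used, the open point is the CLP column left out, and bars are means of the filled points. Phb2 alone has septic and sham arrays that do not overlap, from -0.87 to -0.50 against 0.40 to 0.78.

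**Figure D4:**
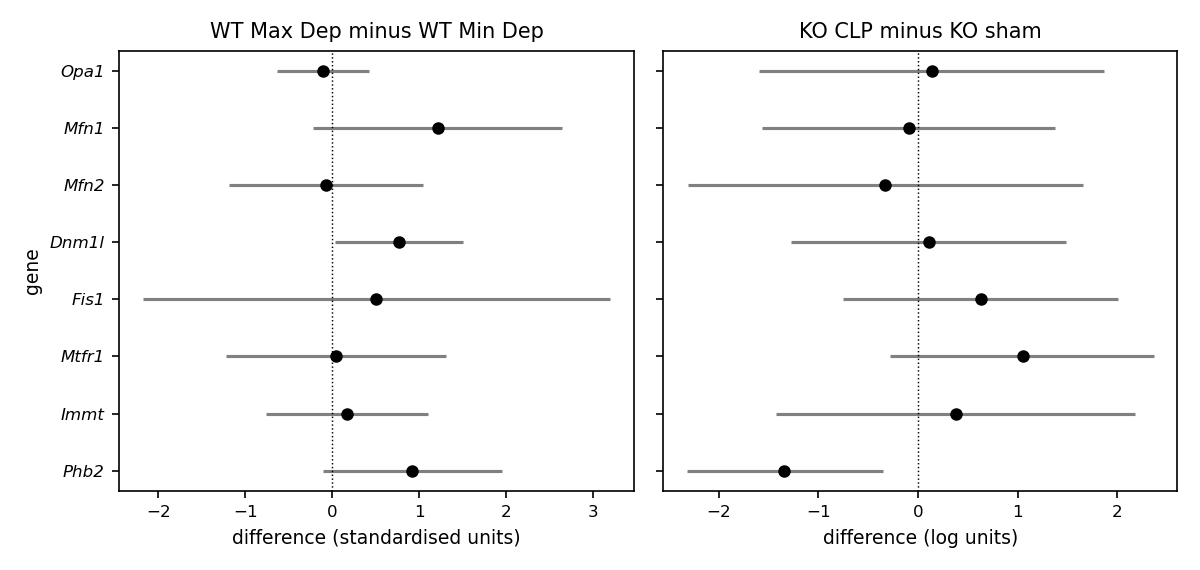
Difference of each gene with its 95% interval (horizontal lines) for Max Dep minus Min Dep in wild-type hearts (left, standardised units) and CLP minus sham in knockout hearts (right, log units); the scales are not comparable. Before adjustment the intervals of Dnm1l on the left and of Phb2 on the right leave out 0, and no gene passed after it.

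Around these genes, 83 genes measured in 7 lists were examined: Opa1 processing and fusion cofactors (12), fission adaptors and regulators (10), cristae organisation and outer membrane assembly (10), mitophagy (11), transport along the cytoskeleton (7), mitochondrial DNA maintenance (13) and import with outer membrane channels (20). In CLP against sham wild-type hearts 0 of 83 rose and 2 fell, where 0.718% of all genes passed in either direction. Mtx2, a metaxin of the outer-membrane sorting machinery, lay at 1.00, 1.23 and 0.99 in sham, at -1.57, -1.50 and -1.09 in Min Dep and at 0.65, -0.11 and 0.54 in Max Dep. It fell by 1.59 ± 0.21 units (limma adjusted p = 0.0452), mostly through Min Dep. Trak1, the adaptor that ties mitochondria to kinesin, fell by 1.63 ± 0.22 (adjusted p = 0.0498), from 0.82 to 1.5 in sham to -1.30 to 0.19 in CLP. Leaving out any one array ended both calls, with Mtx2 between -1.66 and -1.47 and Trak1 between -1.76 and -1.42, as did moderated variances (limma adjusted p = 0.108 and 0.105) and the 5′ minus 3′ covariate (0.106 and 0.222). The lists too were chosen with earlier results of these data known, so the calls of Mtx2 and Trak1 are given as a description. None of the 83 passed in Max Dep against sham or in Min Dep against sham.

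None of the 83 passed in Max Dep against Min Dep or in knockout hearts either. Between the septic wild-type groups 17 of 20 import genes were higher in Max Dep, with a median difference of 0.74 units, and 11 of 12 genes of Opa1 processing, with a median of 0.83, where the median over all genes was -0.08. Timm44, which tethers the import motor, differed by 2.07 ± 0.24 units (limma adjusted p = 0.185), from -1.29 to -0.96 in Min Dep to 0.47 to 1.37 in Max Dep. Mtx2 differed by 1.74 ± 0.24 (0.185) and Kif5b, the kinesin heavy chain that carries mitochondria, by 1.39 ± 0.22 (0.237). Oma1, the stress-activated protease that cleaves Opa1, differed by 1.99 ± 0.55 (adjusted p = 0.412) and was higher in every Max Dep array (0.71 to 2.26) than in every Min Dep array (-0.77 to -0.38). The smallest p of the other lists belonged to Mtfr1l (1.17 ± 0.32), Tbk1 (1.72 ± 0.61) and Gabpb1 (-1.09 ± 0.31), with adjusted p from 0.414 to 0.466. In the fission list 5 of 10 genes were higher in Max Dep (median 0.35) and in the cristae list 7 of 10 (0.49). For mitophagy it was 8 of 11 (0.22), for transport 5 of 7 (0.66) and for DNA maintenance 9 of 13 (0.15). The share of all genes that were higher was not counted. Since the lists were chosen with earlier results known, their counts here and in knockout hearts are a description.

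In knockout hearts Oma1 lay at -0.24, -0.43 and 0.00 in sham and at 0.52 and 1.36 in CLP, a difference of 1.17 ± 0.46 log units (limma adjusted p = 0.394). Kif5b gave 2.35 ± 0.63 (adjusted p = 0.212) and Timm9, a small chaperone of the space between the membranes, -1.70 ± 0.44 (0.198). Mterf3, Bnip3, Samm50 and Sh3glb1 had the smallest p of their lists, at 1.21 ± 0.50, 1.18 ± 0.57, 0.65 ± 0.54 and -0.97 ± 0.55, with adjusted p from 0.417 to 0.731. By list, 10 of 12 genes of Opa1 processing, 5 of 10 of fission, 8 of 10 of cristae, 7 of 11 of mitophagy, 5 of 7 of transport, 10 of 13 of DNA maintenance and 16 of 20 of import were higher in CLP, with medians from -0.01 to 0.62 and a median of 0.03 over all genes.

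The genes whose values lay nearest to Opa1 over the 9 wild-type arrays were Csrp1, Prepl, Txnip, Sulf2 and Csrp2, with a root mean square difference of 0.22 to 0.27 units, where the median over 12392 genes was 1.34. Immt ranked 28, at 0.35. In this scaling any gene that splits septic from sham arrays as sharply comes near, and the likeness is a description. In knockout hearts the differences of these genes ranged widely. Txnip, the thioredoxin-interacting protein, differed by -4.51 ± 0.74 log units (limma adjusted p = 0.0982), Csrp2 by -1.29 ± 0.63 (0.509), Csrp1 by -0.61 ± 0.47 (0.703), Prepl by -0.22 ± 0.72 (0.948) and Sulf2 by 0.28 ± 0.61 (0.916), beside 0.14 ± 0.72 for Opa1.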

How the data were processed

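The deposited tables, 1 for each genotype, hold 22690 probe sets; 64 control probe sets were left out. The authors' processing steps, software and log base are not given in the sources used here, and no scanner files were used. The values deposited by the authors are treated as a score: standardised per probe set in the wild-type table, and centred log differences in the knockout table. Probe sets were named through the platform annotation (20380 with 1 gene symbol, 691 with several, 1555 with none), and a gene's value is the mean of its probe sets with that symbol alone. Differences were fitted with limma 3.58.1 in R 4.3.3 over all 12393 genes, with Benjamini-Hochberg adjustment and a threshold of 0.05. The 9 wild-type arrays entered 1 fit with 6 residual degrees of freedom and unmoderated statistics, because standardising a row ties its residual variance to its group differences (moderation, an alternative, left 0 of 12393 genes in CLP against sham); the knockout fit used eBayes on 5 arrays. Intervals are 95% and unadjusted. The number of arrays limits the precision.

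The members, lists, motifs and tests were chosen with earlier results of these data known. Named are every member, the genes of the lists past the threshold, the gene of each list with the smallest p in the Max Dep against Min Dep and knockout comparisons, and the 5 genes nearest to Opa1. Alternatives were single probe sets, plain probe sets, moderation, undone or rescaled array steps, a 5′ minus 3′ covariate, fewer arrays and leaving out each array. Where leaving out an array left 1 CLP array, that array was assumed to vary like the others. Sequences are from RefSeq (GRCm38.p6); 7 of the 8 genes had a promoter entry, all but Mtfr1.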

Additional observations from a re-analysis of the deposited data

Results flagged for a closer look

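Phb2 was flagged because septic and sham arrays did not overlap in either genotype, with opposite directions. That was the rule for flagging, so it supports nothing. Groups did not overlap for 12.0% of all genes in wild-type and 28.9% in knockout hearts. Neither difference of Phb2 passed the adjusted threshold. Its CLP minus sham difference was 1.42 standardised units in wild-type hearts, where every septic array lay above every sham array, and -1.34 log units in knockout hearts, where every septic array lay below every sham array. Both rest in part on probe sets whose probes may match other transcripts: the plain probe set alone gave 0.53 in wild-type and -0.90 in knockout hearts, with overlapping groups in each. The difference between the genotypes was not tested, since the values come from separately scaled tables of different array models. The genotype cannot be told apart from the table here.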

How the results depend on the processing

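Opa1 kept its sign in all 13 alternatives of the wild-type CLP against sham comparison (-2.28 to -1.94), but the count of members past the threshold was close to the edge. It was 1 as reported, 2 with every probe set tested or with the array step undone (Opa1 and Immt), 0 with eBayes moderation or the 5′ minus 3′ covariate, and 0 to 1 when each array was left out. Over all 12393 genes the count moved likewise: 89 as reported, 179 with the array step undone, 0 with eBayes, 1 with the covariate and 0 to 186 when each array was left out. For Max Dep against sham it was 1 as reported, and 0 with eBayes, with the covariate, with only the arrays compared, and 0 to 0 with each array left out. For Min Dep against sham it was 0 as reported, and 1 with every probe set, with plain probe sets only or with the array step undone. All 9 arrays belong to the CLP against sham comparison, so using only the arrays compared changes nothing there. Max Dep against Min Dep and the knockout comparison stayed at 0 in all alternatives run.

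Some differences turned sign. Between Max Dep and Min Dep, leaving out an array moved Mfn2 from -0.39 to 0.20, Fis1 from -0.40 to 1.78, Mtfr1 from -0.52 to 0.51 and Immt from -0.04 to 0.48; the covariate gave -0.04 for Fis1 and -0.26 for Mtfr1, and the array step undone -0.11 for Mtfr1. In knockout hearts leaving out an array moved Opa1 from -0.62 to 0.90, Mfn1 from -0.72 to 0.54, Mfn2 from -0.92 to 0.38, Dnm1l from -0.67 to 0.89 and Immt from -0.62 to 1.38; the covariate gave 0.51 for Mfn1 and 0.58 for Mfn2, and plain probe sets 0.10 for Mfn1. The cause was not tested. With plain probe sets alone Phb2 was 0.53 in wild-type CLP against sham and turned to -0.42 in Min Dep against sham, Mfn1 turned to -0.22 there, and Mtfr1 to 0.04 in Max Dep against sham. Without Max Dep replicate 2, Fis1 turned to 0.37 in CLP and 1.26 in Max Dep against sham; without Min Dep replicate 3, Mfn1 turned to -0.22 in Min Dep. No paired analysis was possible because the labels share no replicate numbers between groups.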
